A study of Mus musculus with 12 samples.

Results

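The interaction of genotype and 5-FU in mouse LSKs was examined in all 12 libraries of the 12 in the series, 3 in each of 4 groups. For each gene it is the difference between Tespa1-/- and WT after 5-FU, minus the same difference without treatment, on the log2 scale. A positive interaction means that the gene stood relatively higher in Tespa1-/- cells once the mice had received 5-FU, and a negative one that it stood relatively lower. Of the 53465 genes in the count table, 18696 had enough counts to be tested, and every test used all of them.

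LSKs (Lin- Sca-1+ c-Kit+ cells) are the bone marrow fraction that holds the hematopoietic stem cells and the multipotent progenitors. They were sorted from male mice aged 8 to 10 weeks that either carried a germline knockout of Tespa1, bred onto C57BL/6 for more than 6 generations, or were wild type. The groups were untreated WT, untreated Tespa1-/-, WT 9 days after 5-FU and Tespa1-/- 9 days after 5-FU. The knockout is present in all cells of the animal, so the marrow surroundings of the LSKs lacked Tespa1 too, and whether a library held 1 mouse or several is not given in the sources used here. Where libraries of a group do not come from separate mice, the p-values measure only the spread between those libraries.

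5-Fluorouracil is a fluoropyrimidine that blocks thymidylate synthase and kills cycling marrow cells, after which surviving stem cells enter the cycle and refill the progenitor compartments. Tespa1 is a protein of developing T cells that binds the IP3 receptor and takes part in calcium signalling after receptor engagement. A gene that responds equally to 5-FU in both genotypes has an interaction of 0 whatever its level, so the 4 group levels are given with each interaction below.

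Depth was even, at 22118154 to 28275079 counts per library, and 3 counts, the limit used for detection, were worth 0.107 to 0.136 CPM, the count relative to the total of its library. The summed level of 10 LSK and multipotent cell markers was 1702 to 1801 CPM in untreated WT, 1421 to 1479 in untreated Tespa1-/-, 1456 to 1528 in 5-FU-treated WT and 880.4 to 967 in 5-FU-treated Tespa1-/- libraries, and all 10 exceeded 3 counts in every library. Several libraries stood apart. Kidney tubule genes (17 genes, a list added after the values were seen) summed to 29.2 to 113 CPM in untreated Tespa1-/- replicates 2 and 3 and 5-FU-treated WT replicates 1 and 2, against 3.89 to 11.7 in the other 8. Liver genes (11 genes, also added then) summed to 63.9 to 197 CPM in untreated WT replicates 2 and 3 and untreated Tespa1-/- replicate 1, against at most 1.57 elsewhere. Untreated Tespa1-/- libraries held at least 1 count for 27219 to 29523 genes, against 21141 to 24745 in the other groups. The part of these differences in the results was not tested, and counts of called list members are also given without the 4 libraries that held kidney RNA, a fit that leaves 1 library each in untreated Tespa1-/- and 5-FU-treated WT and assumes that these vary like the others.

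Tespa1 itself, at chr10:130322870-130364111 (GRCm38), was counted at 49.9, 43.1 and 46.6 CPM in untreated WT, 34.6, 35.01 and 34.9 in untreated Tespa1-/-, 47.2, 55.1 and 57.5 in 5-FU-treated WT and 20.9, 19.8 and 17.3 in 5-FU-treated Tespa1-/- libraries. All Tespa1-/- libraries lay below all WT libraries in both conditions, but the transcript was not lost. The genotype difference was -0.42 on the log2 scale without treatment (adjusted p = 0.0306, edgeR) and -1.46 after 5-FU (adjusted p = 9.06e-07), which gave an interaction of -1.05 ± 0.15 (SE; adjusted p = 0.00104). In the fit without the 4 libraries with kidney RNA the interaction was -1.14 and missed the threshold (adjusted p = 0.0724, edgeR). The deleted stretch is not given in the sources used here, so counts over the whole gene do not measure how much of the intact transcript remained.

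Across the transcriptome, 311 genes had a positive and 290 a negative interaction at an adjusted p below 0.05 and a size above 1.5-fold (edgeR quasi-likelihood test, Benjamini-Hochberg adjustment), or 1.66% and 1.55% of the genes tested. In the same fit the genotype effect in untreated LSKs was called for 191 genes higher in Tespa1-/- (1.02%) and 244 lower (1.31%), and after 5-FU for 696 higher (3.72%) and 653 lower (3.49%). Without the 4 libraries with kidney RNA, 74 positive and 44 negative interactions were called, and 97 genes were called with the same sign in both fits. For the genotype effects that fit called 43 and 103 genes without treatment and 318 and 240 after it. Leaving out 1 library, the 191 genes higher in untreated Tespa1-/- became 101 to 265 (a shift of over 1.5 times without untreated Tespa1-/- replicate 2 or 3). 5-FU itself raised 3.72% of the genes tested and lowered 2.06% in WT, and raised 4.72% and lowered 3.36% in Tespa1-/-, by the same test and thresholds. The median interaction over all genes tested was -0.02.

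For most of the called interactions the genotype effect itself was called after 5-FU alone. Of the 311 positive ones, the genotype effect was called after 5-FU alone for 175, in untreated cells alone for 54, in both with opposite signs for 15, in both with the same sign for 14 and in neither for 53. Of the 290 negative ones the numbers were 166, 52, 5, 1 and 66. The group whose level stood farthest from the median of the other 3 was 5-FU-treated Tespa1-/- for 198 positive genes, all of them higher there, and untreated WT for 55, again all higher there. Untreated Tespa1-/- stood apart, lower, for 30 positive genes and 5-FU-treated WT, lower, for 28. Among negative genes, 5-FU-treated Tespa1-/- stood apart, lower, for 109, 5-FU-treated WT, higher, for 79, untreated WT, lower, for 54 and untreated Tespa1-/-, higher, for 48. In the fits that left out 1 library, the positive numbers for 5-FU-treated Tespa1-/- and untreated WT were 125 to 178 (a shift of over 1.5 times without 5-FU-treated Tespa1-/- replicate 2) and 36 to 48 (a shift of over 1.5 times without 5-FU-treated Tespa1-/- replicate 2). The negative numbers were 69 to 100 (a shift of over 1.5 times without untreated Tespa1-/- replicate 2) for 5-FU-treated Tespa1-/-, 56 to 89 for 5-FU-treated WT, 32 to 77 (a shift of over 1.5 times without untreated Tespa1-/- replicate 2 or 3 or 5-FU-treated Tespa1-/- replicate 2) for untreated WT and 19 to 43 (a shift of over 1.5 times without any 1 library other than untreated WT replicate 1, 5-FU-treated WT replicates 1, 2 and 3 and 5-FU-treated Tespa1-/- replicate 1) for untreated Tespa1-/-. With each gene kept in its group, the fit without the 4 libraries with kidney RNA called fewer, and the negative numbers in this order were 13, 16, 12 and 3, and the positive ones for 5-FU-treated Tespa1-/- and untreated WT were 45 and 12.

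**Figure D1:**
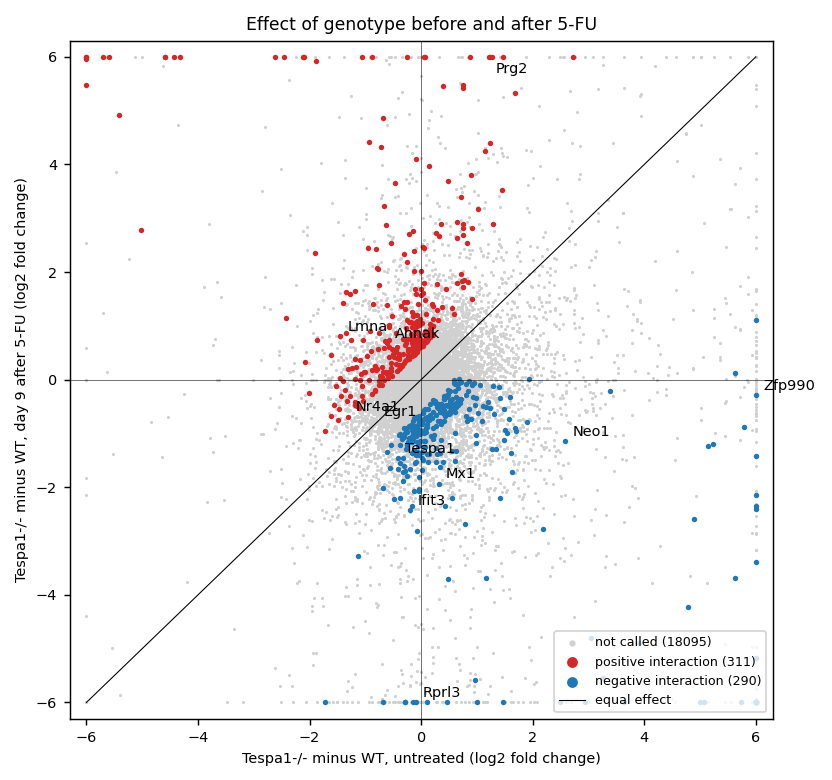
Each point is 1 of the 18696 genes tested, with the log2 difference between Tespa1-/- and WT in untreated LSKs on the x axis and 9 days after 5-FU on the y axis; values beyond 6 are drawn at 6, and the diagonal marks equal effects. Genes with a called interaction lie off the diagonal, 311 above it (red) and 290 below it (blue), while Egr1 lies on it with an interaction of 0.03.

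Called genes were counted in 57 lists of genes that share a function or cell type, of which 24 had 3 or more called members. The shares were far from even. Interferon-stimulated genes and small structural RNAs lay on the negative side, and granule, globin, mitotic, NF-kB and B-lymphoid genes on the positive side. The cytosolic ribosomal proteins (90 tested), the mitochondrial ribosomal proteins (78), ribosome biogenesis genes (52), proteasome subunits (39), genes of the mitochondrial genome (27), megakaryocyte and platelet genes (22), heat-shock chaperones (19), class I presentation genes (15) and Hox genes (14) had no called member by the edgeR test. At an unadjusted p below 0.05 these lists, in that order, held 17, 4, 12, 13, 3, 3, 4, 8 and 2 genes, against 18.7% of all genes tested.

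**Figure D2:**
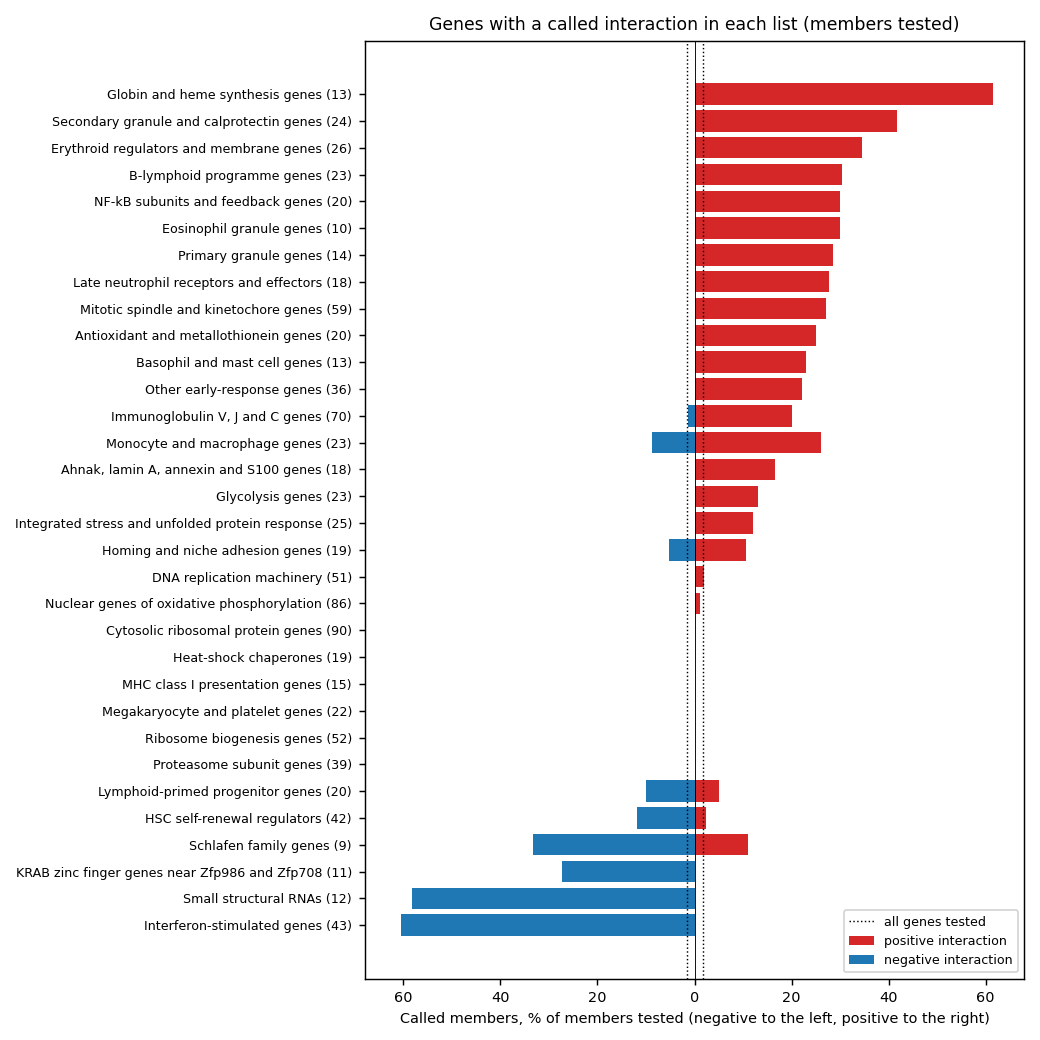
Bars give the share of tested members (number in brackets) with a called positive (red, right) or negative (blue, left) interaction for the 24 lists with 3 or more called members and 8 further lists; dotted lines mark 1.66% and 1.55%, the shares over all genes. Interferon-stimulated genes reached 60.5% on the negative side and globin and heme genes 61.5% on the positive side.

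5-FU raised 22 of 43 interferon-stimulated genes in WT LSKs and 1 in Tespa1-/- LSKs, against 3.72% and 4.72% of all genes. They are switched on when interferons bind their receptors and a complex of transcription factors reaches the interferon-stimulated response element of their promoters, and sustained interferon signalling is known to drive dormant stem cells into the cycle. Of 43 genes tested, 26 had a negative interaction and 0 a positive one, and 42 of the 43 fitted values were below 0. In Tespa1-/- cells 5-FU lowered 3, or 2 to 5 with 1 library left out (a shift of over 1.5 times without 5-FU-treated Tespa1-/- replicate 2). The 22 raised in WT became 18 to 23 with 1 library left out and 14 without the 4 libraries with kidney RNA, and the 1 raised in Tespa1-/- became 0 to 1 and 0, the lower value without any 1 untreated or treated Tespa1-/- library. The median interaction was -0.73, made of a median genotype difference of -0.09 without treatment and -0.86 after 5-FU. With 1 library left out, 23 to 27 members were called, and without the 4 libraries with kidney RNA 9 were called at a median of -0.72.

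Ifit3, an RNA-binding antiviral protein at chr19:34583531-34588731, stood at 14.998, 13.96 and 19.6 CPM in untreated WT, 14.6, 13.4 and 14.4 in untreated Tespa1-/-, 57.6, 55.3 and 55.9 in 5-FU-treated WT and 9.11, 11.2 and 11.1 in 5-FU-treated Tespa1-/- libraries. The 3 libraries of treated WT mice lay above all others and the 3 of treated Tespa1-/- mice below all others, and the interaction was -2.23 ± 0.20 (SE; adjusted p = 2.51e-05, edgeR). Mx1, a dynamin-like GTPase that blocks influenza viruses, was measured at 32.6, 18.1 and 24.4 CPM in untreated WT, 29.1, 34.3 and 30.1 in untreated Tespa1-/-, 61.8, 59.7 and 65.7 in 5-FU-treated WT and 18.5, 10.3 and 20.3 in 5-FU-treated Tespa1-/- libraries. Treated WT again lay above every other library, and the interaction was -2.25 ± 0.32 (adjusted p = 0.00128, edgeR). Ifit3b, a close copy of Ifit3 with which it can share reads, had an interaction of -2.17, and Ifit1, chosen after its values were seen, one of -1.70. Rnf213, a giant ubiquitin ligase and the most abundant member, averaged 1680.3 ± 37.99, 1152 ± 21.04, 2259 ± 29.5 and 967 ± 14.1 CPM (SD, n = 3) in untreated WT, untreated Tespa1-/-, 5-FU-treated WT and 5-FU-treated Tespa1-/- libraries. It was lower in Tespa1-/- already without treatment, at -0.54, which did not pass the fold threshold, and by more after 5-FU, at -1.22, for an interaction of -0.68 ± 0.04 (adjusted p = 2.75e-07, edgeR). Irf7, the transcription factor that amplifies the response and was also chosen after its values were seen, averaged 68.1, 63.6, 101 and 53.97 CPM in the same order. Its interaction was -0.81 ± 0.11, and its gene overlaps Phrf1 on the other strand.

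Promoters of Ifit3 and Ifit1, of this list, and of Slfn5, a Schlafen gene described below that is not in the list, are shown because all of them hold the response element. RefSeq promoter windows (GRCm38.p6, 250 bases before to 50 after the start) were at hand for 19 of the 26 called members, and 12 of these (63.2%) held GAAANNGAAA on either strand. Of all 32 members tested that had a window, called or not, 20 (62.5%) held it, so called members held it at about the same share as the whole list. The same letters occurred in 3.93% of the 11150 genes tested that had a window, and this motif was chosen after the data were seen. Capitals mark the matches, written 5′ to 3′ on the strand of the gene, at chr19:34583279-34583578 (+) for Ifit3, chr19:34640639-34640938 (+) for Ifit1 and chr11:82951852-82952151 (+) for Slfn5.
Ifit3: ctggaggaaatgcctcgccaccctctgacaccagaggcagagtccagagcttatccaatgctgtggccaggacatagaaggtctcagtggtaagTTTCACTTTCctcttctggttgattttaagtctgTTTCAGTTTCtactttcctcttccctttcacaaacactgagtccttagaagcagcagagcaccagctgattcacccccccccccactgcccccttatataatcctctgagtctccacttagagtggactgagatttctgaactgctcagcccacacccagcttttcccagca
Ifit1: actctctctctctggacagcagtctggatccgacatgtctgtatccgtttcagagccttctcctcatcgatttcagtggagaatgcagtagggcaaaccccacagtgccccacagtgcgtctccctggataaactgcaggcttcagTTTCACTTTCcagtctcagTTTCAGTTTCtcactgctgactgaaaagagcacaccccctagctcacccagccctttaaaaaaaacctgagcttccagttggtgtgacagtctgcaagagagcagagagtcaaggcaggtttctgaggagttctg
Slfn5: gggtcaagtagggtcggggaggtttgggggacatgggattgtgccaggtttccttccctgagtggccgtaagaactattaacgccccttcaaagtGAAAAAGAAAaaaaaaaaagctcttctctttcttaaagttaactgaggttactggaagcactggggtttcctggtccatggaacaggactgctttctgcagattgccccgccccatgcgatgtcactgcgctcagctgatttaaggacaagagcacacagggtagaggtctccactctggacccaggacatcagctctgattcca
Ifit3 and Ifit1 each held 2 matches and Slfn5 1. The GAS element, searched as TTCNNNGAA, was found in 4 of the 19 called members (21.1%) and 7 of all 32 list members with a window (21.9%), against 8.35% of all genes with one. A match describes the letters only and does not show that a factor binds there.

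Larger interferon-inducible families had negative interactions too, by lists added after the values were seen, in which Trim30a alone was already counted above. Of 21 Gvin and Ifi200 genes tested, 17 had a negative interaction, and of 21 Tgtp, Gbp and Trim30-related genes 12 did. No member of either list was called positive. Without the 4 libraries with kidney RNA these were 9 and 2. Gvin1, a very large GTPase, was present at 684, 632 and 643 CPM in untreated WT, 660.2, 652 and 667 in untreated Tespa1-/-, 984, 944 and 941 in 5-FU-treated WT and 425, 298 and 409 in 5-FU-treated Tespa1-/- libraries. Treated WT lay above and treated Tespa1-/- below all untreated libraries, and the interaction was -1.36 ± 0.13 (adjusted p = 8e-05, edgeR). Gbp6, a guanylate-binding protein, was instead level in 3 groups, at 37.5, 41.6 and 39.2 CPM in untreated WT, 39.6, 34.9 and 40.1 in untreated Tespa1-/-, 37.9, 38.4 and 39.7 in 5-FU-treated WT and 11.4, 5.93 and 15.6 in 5-FU-treated Tespa1-/- libraries. The treated Tespa1-/- libraries lay below all others, for an interaction of -1.77 ± 0.32 (adjusted p = 0.00623, edgeR). These genes lie in clusters of near-identical copies (Gvin1 overlaps Gm18853 on the same strand, and Gbp6 overlaps Gm43302), so reads may be split among them. Tlr7, the endosomal receptor for single-stranded RNA, chosen after its values were seen, averaged 13.7, 20.2, 18.5 and 4.03 CPM in untreated WT, untreated Tespa1-/-, 5-FU-treated WT and 5-FU-treated Tespa1-/- cells, with an interaction of -2.76 ± 0.52 (adjusted p = 0.00724, edgeR).

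Schlafen genes, which restrain proliferation and translation in lymphoid and myeloid cells, split in direction. Of 9 tested, 3 had a negative interaction and 1 a positive one, or 1 and 0 without the 4 libraries with kidney RNA. The positive count was 0 with limma-voom and 0 with at least 10 counts required in every library. Slfn5 averaged 54.1 ± 2.13 CPM in untreated WT, 43.5 ± 4.87 in untreated Tespa1-/-, 118 ± 8.27 in 5-FU-treated WT and 39.1 ± 2.64 in 5-FU-treated Tespa1-/- cells (SD, n = 3). Treated WT stood above the rest, and the interaction was -1.28 ± 0.13 (adjusted p = 0.000107, edgeR). Slfn8 and Slfn9 followed with interactions of -0.75 and -0.65. Slfn4, which marks myeloid cells, was at 0.250, 0.0889 and 0 CPM in untreated WT, 0.0879, 0.444 and 0.350 in untreated Tespa1-/-, 0.234, 0.386 and 0.414 in 5-FU-treated WT and 28.6, 33.1 and 35.6 in 5-FU-treated Tespa1-/- libraries. All 3 treated Tespa1-/- libraries lay far above the rest, and the interaction was 5.31 ± 0.98 (adjusted p = 0.00685, edgeR). With 1 library left out, the call of the edgeR quasi-likelihood test was lost for Slfn4 without untreated WT replicate 1 (3.96, adjusted p = 0.179).

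**Figure D3:**
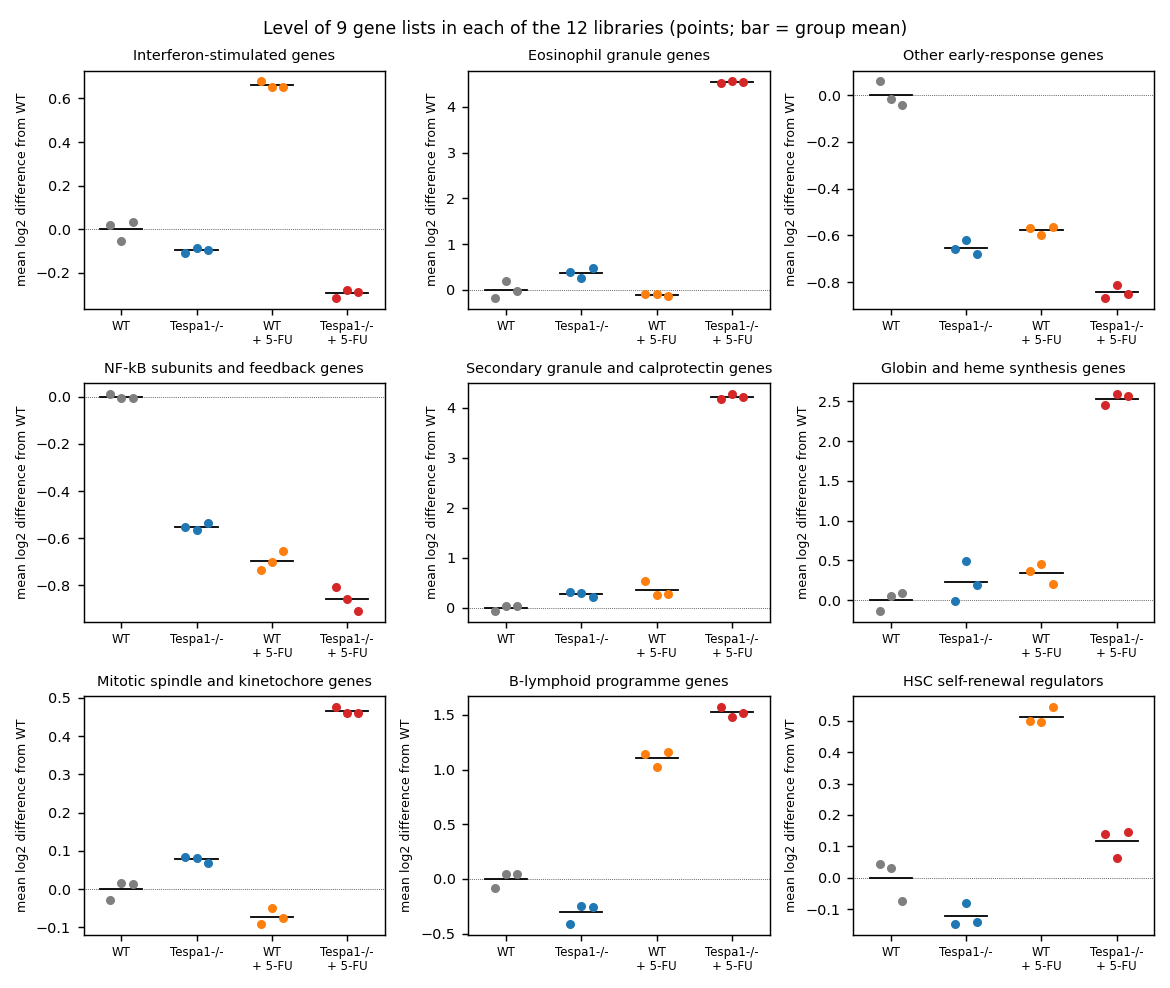
Each panel gives, for every library (point) and group (bar, mean of 3), the mean over a list's tested members of log2(CPM + 0.5) minus its mean in untreated WT. Interferon-stimulated genes stood at 0.68, 0.65 and 0.65 in 5-FU-treated WT and at -0.32, -0.28 and -0.29 in 5-FU-treated Tespa1-/- libraries, whereas early-response and NF-kB genes were highest in untreated WT and granule and globin genes in 5-FU-treated Tespa1-/-.

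Early-response genes formed a second pattern, in which untreated WT LSKs stood apart. These genes are transcribed within minutes of a stimulus and include transcription factors, feedback inhibitors and cytokines. Of 36 such genes outside the NR4A, EGR, FOS and JUN families, 8 had a positive interaction, and untreated WT was the group apart for all 8. In untreated cells 21 of the 36 were lower in Tespa1-/-, against 1.31% of all genes, and after 5-FU 4 were, against 3.49%. 5-FU lowered 16 of them in WT and 3 in Tespa1-/- cells, against 2.06% and 3.36% of all genes. These were 15 and 3 without the 4 libraries with kidney RNA. The median interaction was 0.44, and 2 members were called at a median of 0.41 without the 4 libraries with kidney RNA.

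Klf2, a factor that keeps lymphocytes and stem cells quiescent, stood at 481, 453 and 439.9 CPM in untreated WT, 245, 274 and 269 in untreated Tespa1-/-, 171, 171 and 169.7 in 5-FU-treated WT and 187, 204 and 192 in 5-FU-treated Tespa1-/- libraries. Untreated WT was above untreated Tespa1-/-, which was above both treated groups, and the interaction was 0.99 ± 0.08 (adjusted p = 8.07e-06, edgeR). Gadd45b, a stress sensor, had an interaction of 1.09 ± 0.13, and Csrnp1, a nuclear factor induced by AXIN, one of 0.94 ± 0.13. In both the genotype difference was called without treatment, at -1.10 and -1.33, and not after 5-FU, at -0.01 and -0.39. Zfp36l2, an RNA-decay factor and the most abundant member, had an interaction of 0.05 ± 0.04 and was not called (adjusted p = 0.616, edgeR). Vegfa, an endothelial growth factor chosen after its values were seen, was counted at 308, 306 and 209 CPM in untreated WT, 108, 108 and 105 in untreated Tespa1-/-, 55.3, 76.3 and 75.1 in 5-FU-treated WT and 61.9, 60.2 and 59.4 in 5-FU-treated Tespa1-/- libraries. Its interaction was 1.17 ± 0.20 (adjusted p = 0.00362, edgeR). Lif, a cytokine of the IL-6 family chosen likewise, averaged 43.96 CPM in untreated WT and 10.4, 5.70 and 7.22 in the other groups, in the order used above, with an interaction of 2.41. The call was lost in 8 of the 12 edgeR fits that each left out 1 library for Lif (interaction 2.13 to 2.60 in those fits).

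Among the NR4A and EGR factors, 2 of 9 were called, or 0 to 2 (a shift of over 1.5 times without any 1 library other than untreated WT replicate 3, untreated Tespa1-/- replicate 1 and 5-FU-treated WT replicate 1) with 1 library left out and 1 without the 4 libraries with kidney RNA, and 1 with limma-voom and 1 with library totals in place of TMM factors. Nr4a1, an orphan nuclear receptor induced by antigen-receptor and growth-factor signals, was measured at 909.9, 891 and 916 CPM in untreated WT, 351, 350.4 and 392 in untreated Tespa1-/-, 349.8, 341 and 335 in 5-FU-treated WT and 193, 223 and 219 in 5-FU-treated Tespa1-/- libraries. Treated Tespa1-/- was lowest, but the genotype difference shrank from -1.31 without treatment to -0.69 after 5-FU, for an interaction of 0.62 ± 0.08 (adjusted p = 0.000648, edgeR). Nr4a3 had an interaction of 1.08 ± 0.27 (adjusted p = 0.0359) and Nr4a2 one of 0.60 ± 0.18 (adjusted p = 0.0783, edgeR), which was not called. Egr1, a zinc-finger factor that holds stem cells in the niche, stood at 699, 884 and 881 CPM in untreated WT, 465, 469 and 483 in untreated Tespa1-/-, 689, 706 and 694 in 5-FU-treated WT and 396, 423 and 408 in 5-FU-treated Tespa1-/- libraries. It was lower in Tespa1-/- by a like amount in both conditions, -0.80 and -0.77, and the interaction was 0.03 ± 0.10 (adjusted p = 0.917, edgeR). Jmjd1c, a histone demethylase, and Myct1, a membrane protein of stem cells, had interactions of -0.10 ± 0.06 and -0.46 ± 0.19 (adjusted p = 0.395 and 0.201, edgeR), neither of which was called, and Jmjd1c overlaps Reep3 on the other strand. Of 11 FOS and JUN factors, Atf3 (0.96) and Junb (0.61) were called, which became 0 to 2 (a shift of over 1.5 times without any 1 library other than 5-FU-treated Tespa1-/- replicate 3) with 1 library left out, 1 without the kidney-RNA libraries, 1 with the replicate as a block and 0 with library totals in place of TMM factors. The edgeR call did not hold for Nr4a1 without 5-FU-treated Tespa1-/- replicate 2 (0.57, adjusted p = 0.00235) and 5-FU-treated Tespa1-/- replicate 3 (0.58, adjusted p = 0.00268). The call failed in 9 of the 12 edgeR fits that each left out 1 library for Nr4a3 (interaction 0.93 to 1.10 in those fits). For Nr4a1 it was the fold threshold that was missed.

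NF-kB subunits and feedback genes behaved alike, with 6 of 20 called positive and untreated WT apart for all 6. Tnfaip3, the deubiquitinase A20 that shuts NF-kB signalling off, was at 463, 446 and 475 CPM in untreated WT, 243, 234 and 224 in untreated Tespa1-/-, 169.5, 215 and 160.4 in 5-FU-treated WT and 256, 285 and 197 in 5-FU-treated Tespa1-/- libraries. Its order of genotypes turned, with a fitted difference of -0.98 without treatment, which was called, and 0.44 after 5-FU, which was not, for an interaction of 1.42 ± 0.17 (adjusted p = 0.00036, edgeR). The cytokine Tnf and the chemokine Cxcl2 had interactions of 1.15 ± 0.23 and 1.20 ± 0.20. Cxcl2 averaged 128 CPM in untreated WT, 55.9 in untreated Tespa1-/- and 28.8 and 28.8 in the treated groups. Nfkbiz, the most abundant of the list, had an interaction of 0.38 ± 0.10 (adjusted p = 0.0443, edgeR), below the fold threshold. 4 to 6 members were called with 1 library left out, and 1 without the 4 libraries with kidney RNA, at a median of 0.39 against 0.41.

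After 5-FU most secondary granule and calprotectin genes were higher in Tespa1-/- than in WT LSKs. Of 24 secondary granule and calprotectin genes, which neutrophils make late in maturation, 10 had a positive interaction and none a negative one, and treated Tespa1-/- was the group apart for all 10. After 5-FU 21 of the 24 were higher in Tespa1-/-, against 3.72% of all genes, and without treatment 4 were, against 1.02%. Leaving out 1 library gave 2 to 5 without treatment (a shift of over 1.5 times without untreated WT replicate 2 or untreated Tespa1-/- replicate 2 or 3). Summed over the list, the level was 249.5 to 273 CPM in untreated WT, 262 to 289 in untreated Tespa1-/-, 286 to 308 in 5-FU-treated WT and 1819.6 to 1833 in 5-FU-treated Tespa1-/- libraries. The median interaction was 3.49, or 3.66 with the 10 members that were at or under 3 counts throughout a group set at that limit. It was 5.51 without the 4 libraries with kidney RNA and 1.34 over the members with at least 10 counts in every library, and called members numbered 16 with DESeq2 and 5 with at least 10 counts required in every library. Leaving out 1 library gave 6 to 11 called members, the lowest count without untreated WT replicate 2, and leaving out the 4 libraries with kidney RNA gave 6. The summed level of 11 neutrophil markers was 2.54 to 2.67 CPM in untreated WT, 6.95 to 8.05 in untreated Tespa1-/-, 9.15 to 13.3 in 5-FU-treated WT and 1020.0 to 1026 in 5-FU-treated Tespa1-/- libraries. Granule and calprotectin genes made most of the last sum, among them S100a9 (328, 311 and 310 CPM), Ngp (263, 248 and 240) and Ltf (143, 159 and 154). It is thus no separate result. The marker Cxcr2 was at 4.29, 5.48 and 6.78 CPM in treated WT and 1.98, 2.99 and 7.27 in treated Tespa1-/- libraries, while the other markers were higher in the latter. Before sorting, mature cells were removed with a lineage depletion kit, and the stain that defines Lin- cells covered CD3e, CD11b, Gr-1, B220 and Ter-119, of which neutrophils carry CD11b and Gr-1. In bulk RNA more cells of a type within the gate and more RNA per cell cannot be told apart, for these and for every lineage gene below.

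S100a8, a subunit of calprotectin at chr3:90668978-90670035, was counted at 0, 0.756 and 0 CPM in untreated WT, 0.616, 0.444 and 0.262 in untreated Tespa1-/-, 0.781, 0.154 and 0.414 in 5-FU-treated WT and 126, 125 and 140.2 in 5-FU-treated Tespa1-/- libraries. All libraries of treated Tespa1-/- mice lay far above every other library, and the interaction was 7.28 ± 1.35 (adjusted p = 0.00689, edgeR). Its partner S100a9, chosen after its values were seen, averaged 316 ± 10.2 CPM there and at most 1.30 elsewhere. Fcnb, a secreted lectin of granulocyte precursors, had 0, 9 and 0 counts in untreated WT, 2, 7 and 0 in untreated Tespa1-/-, 0, 0 and 0 in 5-FU-treated WT and 1016, 901 and 776 in 5-FU-treated Tespa1-/- libraries. After 5-FU it was thus at least 288-fold higher in Tespa1-/-, against the limit of 3 counts in the shallowest library. Wfdc21, a small secreted antimicrobial protein, and Retnlg, a resistin-like hormone of neutrophils, were at least 79.8-fold higher and at least 85.6-fold higher after 5-FU by the same limit. Serpinb1a, an inhibitor of neutrophil proteases and the most abundant member, was not called (interaction 0.46 ± 0.13, adjusted p = 0.0663, edgeR). Leaving out a single library ended the edgeR call for S100a8 without untreated WT replicate 2 (1.72, adjusted p = 0.918), for S100a9 without untreated WT replicate 1 (3.44, adjusted p = 0.321), for Fcnb without untreated WT replicate 2 (8.02, adjusted p = 1) and for Retnlg without untreated WT replicate 1 (10.99, adjusted p = 1).

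The late neutrophil receptors and effectors had 5 positive calls among 18, or 1 to 5 (a shift of over 1.5 times without any 1 library other than 5-FU-treated WT replicate 2) with 1 library left out. Hdc is 1 of the 5 and is also counted among the basophil genes below. The list summed to 418 to 448 CPM in treated WT and 422 to 433 in treated Tespa1-/- libraries. Il1b, the cytokine interleukin-1 beta, and G0s2, a lipase inhibitor, reached only 1.89 and 2.97 CPM in treated Tespa1-/- cells, with interactions of 7.82 ± 1.91 and 3.89 ± 0.997. Il1b overlaps Il1bos and G0s2 overlaps Lamb3 on the other strand. With the 4 kidney-RNA libraries left out 1 member was called, and the count was 2 with at least 10 counts required in every library. The call ended in 9 to 11 of the 12 edgeR fits that each left out 1 library for Il1b (interaction 7.01 to 7.98 in those fits) and G0s2 (interaction 3.49 to 4.38 in those fits).

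Primary granule genes, which myeloblasts and promyelocytes already make, were expressed in all groups and differed by less. Elane, neutrophil elastase, stood at 71.7, 72.8 and 67.9 CPM in untreated WT, 127, 113 and 118 in untreated Tespa1-/-, 144, 145 and 142 in 5-FU-treated WT and 464, 496 and 458 in 5-FU-treated Tespa1-/- libraries. No groups overlapped, treated Tespa1-/- was highest, and the interaction was 0.96 ± 0.08 (adjusted p = 1.21e-05, edgeR). Mpo, myeloperoxidase, averaged 2295, 3125, 2166 and 3614 CPM in the order used above and had an interaction of 0.29 ± 0.06 (adjusted p = 0.0105, edgeR), below the fold threshold. Prss57, a serine protease of the same granules, and Igsf6, a myeloid surface protein, were called at 1.37 and 0.79, and both overlap a gene on the other strand. 4 of 14 members were called, 2 to 4 (a shift of over 1.5 times without untreated Tespa1-/- replicate 3, 5-FU-treated WT replicate 2 or 5-FU-treated Tespa1-/- replicate 1 or 2) with 1 library left out, and 1 without the 4 libraries with kidney RNA. The count was 2 with a replicate block, 2 with library totals in place of TMM factors and 2 with RLE size factors. The threshold was missed in 9 of the 12 edgeR fits that each left out 1 library for Igsf6 (interaction 0.57 to 0.80 in those fits).

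Eosinophil granule genes summed to 680.2 to 713 CPM in treated Tespa1-/- libraries, above every library of the other groups, which held at most 10.1. Prg2, the major basic protein of the eosinophil granule, at chr2:84980461-84983632, was measured at 0.143, 0.623 and 0.544 CPM in untreated WT, 0.879, 0.889 and 1.14 in untreated Tespa1-/-, 0.546, 0 and 0 in 5-FU-treated WT and 389, 386 and 400.1 in 5-FU-treated Tespa1-/- libraries. Every treated Tespa1-/- library lay far above every other library, and the interaction of 9.80 ± 1.02 (adjusted p = 0.00012, edgeR) was called in all 12 fits that left out a library. Prg3, its neighbour at chr2:84988215-84993886, and Ear2, an eosinophil ribonuclease, had no count in any treated WT library, and after 5-FU they were at least 142-fold higher and at least 149.6-fold higher in Tespa1-/- by the 3-count limit. 3 of 10 members tested had a called interaction, and 7 of the 10 were at or under 3 counts throughout at least 1 group. After 5-FU 8 were higher in Tespa1-/-, against 3.72% of all genes, and without it 2 were, against 1.02%. The called interactions numbered 7 with DESeq2, 6 with limma-voom and 0 with at least 10 counts required in every library (fewer genes tested in the last), and 1 without the 4 libraries with kidney RNA. The 8 eosinophil markers summed to 665 to 701 CPM in treated Tespa1-/- libraries and to at most 9.58 in the others. These markers share Prg2, Prg3 and Ear2 with the list, so their sum largely repeats it. A single library decided the edgeR call for Prg3 without untreated WT replicate 3 (7.01, adjusted p = 1) and for Ear2 without untreated WT replicate 2 (10.56, adjusted p = 0.0655).

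Basophil and mast cell genes rose with 5-FU in both genotypes, 9 of 13 in WT and 13 of 13 in Tespa1-/-, against 3.72% and 4.72% of all genes. These were 5 and 6 without the 4 libraries with kidney RNA. 3 had a positive interaction, or 1 to 3 (a shift of over 1.5 times without untreated WT replicate 1, untreated Tespa1-/- replicate 1 or 3 or 5-FU-treated Tespa1-/- replicate 1, 2 or 3) with 1 library left out. Mcpt8, the basophil protease, averaged 2.69, 2.17, 3.25 and 16.5 CPM in untreated WT, untreated Tespa1-/-, 5-FU-treated WT and 5-FU-treated Tespa1-/- cells, with an interaction of 2.64 ± 0.36 (adjusted p = 0.000814, edgeR). Prss34, another basophil protease, and Hdc, which makes histamine, had interactions of 4.73 ± 1.13 and 1.16 ± 0.28, and Gata2, a factor of mast cells and stem cells, was not called (-0.53 ± 0.20). With the 4 kidney-RNA libraries left out 1 was called. Prss34 was not called in 9 of the 12 edgeR fits that each left out 1 library, with interactions of 4.41 to 4.86 in 8 of them and of -1.61 without untreated WT replicate 1. The call was lost in 8 of the 12 edgeR fits that each left out 1 library for Hdc (interaction 1.06 to 1.20 in those fits). Of the 13 fitted interactions of the list, 10 were above 0 and 3 below. The mast cell protease Tpsb2 was at 1.60, 2.86 and 1.65 CPM in treated WT and 0.439, 0.814 and 1.04 in treated Tespa1-/- libraries. Mcpt4 stood at 1.91, 1.89 and 2.77 against 0.659, 2.17 and 1.22, and Cma1 at 4.45, 2.47 and 0.868 against 1.54, 1.09 and 2.76. Cpa3 and Fcer1a were higher in treated Tespa1-/-.

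Monocyte and macrophage genes gave 6 positive and 2 negative calls among 23. The negative count stayed at 2 in every fit that left out 1 library. Of the fitted interactions 16 were above 0 and 7 below, and the called members described here are all positive. Fn1, fibronectin, was at 5.43, 2.76 and 5.67 CPM in untreated WT, 2.11, 4.09 and 3.37 in untreated Tespa1-/-, 4.53, 6.45 and 4.55 in 5-FU-treated WT and 30.2, 31.99 and 27.8 in 5-FU-treated Tespa1-/- libraries, and its interaction of 3.07 ± 0.41 (adjusted p = 0.000705, edgeR) came from the treated Tespa1-/- libraries, which lay above all others. Vcam1, an adhesion molecule that marks stem cells as self to macrophages, and Lgals3, galectin-3, followed the same order with interactions of 2.43 ± 0.35 and 3.22 ± 0.83. F13a1, the clotting factor subunit that monocytes make, was higher in Tespa1-/- by a like amount in both conditions, 0.99 and 1.18, and was not called. C3, the central complement protein, chosen after its values were seen, averaged 142 CPM in treated Tespa1-/- cells and 15.5, 19.3 and 22.3 in untreated WT, untreated Tespa1-/- and treated WT (interaction 2.34 ± 0.35). The summed monocyte and macrophage markers stood at 215 to 228 CPM in treated WT and 247 to 260.4 in treated Tespa1-/-. The call failed in 9 of the 12 edgeR fits that each left out 1 library for Lgals3 (interaction 2.67 to 3.28 in those fits). Positive calls numbered 3 to 5 (a shift of over 1.5 times without untreated Tespa1-/- replicate 2, 5-FU-treated WT replicate 2 or 3 or 5-FU-treated Tespa1-/- replicate 2 or 3) with 1 library left out, and 1 without the 4 libraries with kidney RNA.

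Globin and heme synthesis genes were mostly higher in treated Tespa1-/- than in treated WT LSKs (10 of 13, against 3.72% of all genes). Of 13 globin and heme synthesis genes tested, 8 had a positive interaction and 0 a negative one, and treated Tespa1-/- was the group apart for all 8. 5-FU raised 12 of the 13 in Tespa1-/- and 1 in WT, against 4.72% and 3.72% of all genes, and without the 4 libraries with kidney RNA 8 and 1. The median interaction was 0.81. Leaving out 1 library gave 5 to 8 called members, the 2 lowest counts without 5-FU-treated Tespa1-/- replicates 1 and 2, and 4 were called without the 4 libraries with kidney RNA, at a median of 0.80.

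Hba-a1, an alpha globin, was counted at 1.21, 2.85 and 2.99 CPM in untreated WT, 1.76, 7.33 and 2.62 in untreated Tespa1-/-, 2.89, 5.13 and 1.08 in 5-FU-treated WT and 130.2, 138 and 123 in 5-FU-treated Tespa1-/- libraries. Treated Tespa1-/- lay above every other library, and the interaction was 4.66 ± 0.74 (adjusted p = 0.00236, edgeR). Hba-a2 is a near-identical copy, so reads may be shared between them, and its interaction was 5.56 ± 1.41. Alas2, which starts heme synthesis in red cells, averaged 12.6 CPM in treated Tespa1-/- and at most 0.391 in the other groups (interaction 8.89 ± 1.47, adjusted p = 0.00326, edgeR), and it overlaps Apex2 on the other strand. Cpox, a heme enzyme that all cells use, was already abundant, at 28.2, 34.4 and 36.8 CPM in untreated WT, 33.8, 32.9 and 32.5 in untreated Tespa1-/-, 36.6, 37.9 and 40.2 in 5-FU-treated WT and 118, 117 and 134 in 5-FU-treated Tespa1-/- libraries. The treated Tespa1-/- libraries lay above the rest, which spanned 28.2 to 40.2 CPM, and the interaction was 1.68 ± 0.14 (adjusted p = 1.21e-05, edgeR). The call ended in 9 of the 12 edgeR fits that each left out 1 library for Hba-a2 (interaction 4.72 to 5.69 in those fits).

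Erythroid regulators and membrane genes gave 9 positive calls among 26. Of the 26, 10 were already higher in untreated Tespa1-/-, against 1.02% of all genes, and 19 after 5-FU, against 3.72%. The median genotype differences were 0.86 and 1.59. Here 5-FU raised genes in both genotypes, 17 in WT and 23 in Tespa1-/-, against 3.72% and 4.72% of all genes, or 7 and 13 without the 4 libraries with kidney RNA. Slc4a1, the anion exchanger band 3, was at 0.179, 0.222 and 0 CPM in untreated WT, 0.440, 0.178 and 0.394 in untreated Tespa1-/-, 0.0390, 0 and 0.827 in 5-FU-treated WT and 101, 88.8 and 92.04 in 5-FU-treated Tespa1-/- libraries, and its interaction was 7.10 ± 1.63 (adjusted p = 0.0242, edgeR). Sptb, a spectrin chain under the red cell membrane, was expressed more widely, with group means of 3.73, 10.1, 12.7 and 147 CPM in the order used above and an interaction of 2.08. Cd24a, a surface protein of several lineages, was the 1 member for which untreated Tespa1-/- stood apart, with a genotype difference of -0.46 without treatment and 0.30 after 5-FU (interaction 0.75 ± 0.08, adjusted p = 0.000107, edgeR). Sptb overlaps Plekhg3 on the other strand. The 9 erythroid markers summed to 146 to 172, 163 to 173, 244 to 268 and 658 to 704 CPM in the 4 groups in the order used above. With 1 library left out, the call of the edgeR quasi-likelihood test was lost for Slc4a1 without untreated WT replicate 1 (6.82, adjusted p = 0.116) and untreated WT replicate 2 (6.65, adjusted p = 0.136). Without 5-FU-treated Tespa1-/- replicate 3, 5 members were called, and without the 4 libraries with kidney RNA 3.

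**Figure D4:**
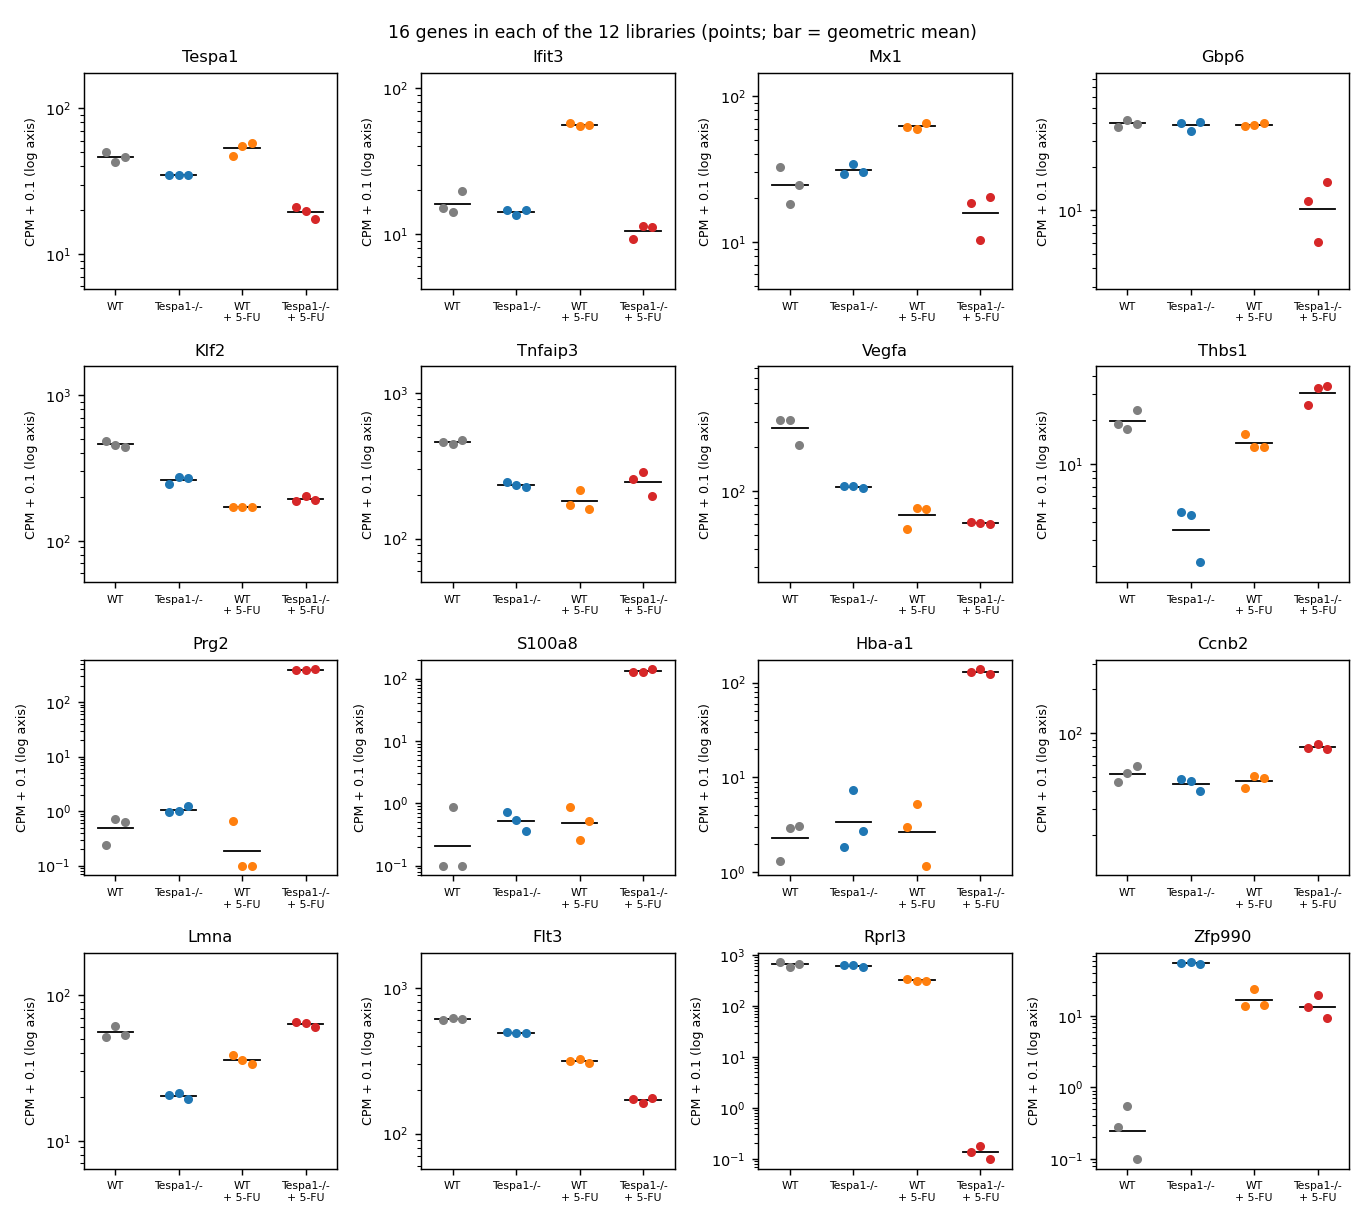
CPM plus 0.1 on a log axis for 16 genes in each library (points) with the geometric mean of each group (bars). Treated WT stands apart for Ifit3 and Mx1, untreated WT for Klf2 and Vegfa, treated Tespa1-/- for Prg2, S100a8, Hba-a1, Ccnb2 and Rprl3, and Thbs1 and Lmna change order between genotypes.

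After 5-FU 25 of 59 mitotic genes were higher in Tespa1-/- LSKs, against 3.72% of all genes. Of 59 spindle and kinetochore genes, 16 had a positive interaction and 0 a negative one, 58 fitted values were above 0, and treated Tespa1-/- was the group apart for 15 of the 16. Of 51 genes of the replication machinery 1 was called positive (1.96%, near the 1.66% of all genes), Rrm2, a subunit of ribonucleotide reductase (0.83), and 1 to 2 (a shift of over 1.5 times without 5-FU-treated WT replicate 1) with 1 library left out and 0 without the 4 libraries with kidney RNA. The median interactions were 0.48 and 0.15, and the difference between the lists was not tested. 5-FU raised 12 of the 59 mitotic genes in Tespa1-/- and 0 in WT, where it lowered 1, against 4.72% and 3.72% of all genes raised. When the 4 libraries with kidney RNA were left out, it raised 9 and 0, and 17 were higher in Tespa1-/- after 5-FU.

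Ccnb2, the cyclin B2 that drives entry into mitosis, was measured at 46.5, 53.1 and 59.4 CPM in untreated WT, 48.3, 46.6 and 39.97 in untreated Tespa1-/-, 42.2, 50.4 and 49.04 in 5-FU-treated WT and 78.8, 84.3 and 77.3 in 5-FU-treated Tespa1-/- libraries. Treated Tespa1-/- lay above all other libraries, and the interaction was 0.9997 ± 0.15 (adjusted p = 0.0018, edgeR). Ube2c, which tags cyclins for destruction, and Ccna2, cyclin A2, had interactions of 0.94 ± 0.14 and 0.88 ± 0.11, and Ccna2 overlaps Exosc9 on the other strand. Mki67, the proliferation antigen Ki-67, averaged 1355 ± 34.1, 1326 ± 18.6, 1430.4 ± 18.9 and 2073 ± 30.8 CPM (SD, n = 3) in the order used above, with an interaction of 0.57 ± 0.04 (adjusted p = 1.49e-06, edgeR) that fell just short of the fold threshold. Leaving out 1 library gave 11 to 15 called members, and leaving out the 4 libraries with kidney RNA gave 3 at a median of 0.50.

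Most B-lymphoid genes rose with 5-FU in both genotypes. Of 23 tested, 7 had a positive interaction, 7 were lower in untreated Tespa1-/- and none was lower there after 5-FU, and 5-FU raised 15 in WT and 19 in Tespa1-/- and lowered 2 and 1. Over all genes, 1.31% were lower in untreated Tespa1-/-, and 5-FU raised 3.72% in WT and 4.72% in Tespa1-/-. In the fit without kidney-RNA libraries 2 were lower in untreated Tespa1-/-, and 5-FU raised 12 and 14. Untreated Tespa1-/- was the group apart for 6 of the 7 called. Pax5, the factor that commits cells to the B lineage, was at 13.6, 15.4 and 18.3 CPM in untreated WT, 4.79, 7.42 and 8.97 in untreated Tespa1-/-, 67.99, 72.1 and 64.8 in 5-FU-treated WT and 72.1, 88.1 and 80.7 in 5-FU-treated Tespa1-/- libraries. Its genotype difference was -1.16 without treatment and 0.23 after 5-FU, for an interaction of 1.39 ± 0.25 (adjusted p = 0.0049, edgeR). Cd79a, a chain of the B cell receptor complex, had an interaction of 1.46 ± 0.25. Dntt, terminal transferase, was the most abundant and was not called (-0.19 ± 0.05, adjusted p = 0.037, edgeR). Leaving out the 4 kidney-RNA libraries, 2 members were called, at a median of 0.75 against 0.72.

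Immunoglobulin genes gave 14 positive calls and 1 negative among 70 tested, of 395 listed, or 11 to 14 positive with 1 library left out and 6 without the 4 libraries with kidney RNA. Among the called, untreated WT was the group apart for 4, 5-FU-treated WT for 4, 5-FU-treated Tespa1-/- for 7 and untreated Tespa1-/- for 0. Jchain, a member of the B-lymphoid list that joins the subunits of secreted IgA and IgM, stood at 12.8, 14.3 and 19.2 CPM in untreated WT, 4.31, 6.80 and 8.09 in untreated Tespa1-/-, 6.01, 3.71 and 5.13 in 5-FU-treated WT and 17.9, 11.6 and 15.1 in 5-FU-treated Tespa1-/- libraries. It was lower in Tespa1-/- without treatment (-1.27) and higher after 5-FU (1.59), both called, for an interaction of 2.86 ± 0.38 (adjusted p = 0.000752, edgeR). Igkc, the kappa light chain constant region, chosen after its values were seen, was at 47.6, 53.4 and 59.6 CPM in untreated WT, 21.8, 24.4 and 24.4 in untreated Tespa1-/-, 19.6, 14.7 and 15.01 in 5-FU-treated WT and 52.9, 54.2 and 47.3 in 5-FU-treated Tespa1-/- libraries (interaction 2.83 ± 0.18, adjusted p = 1.51e-06, edgeR), and Igha, the IgA heavy chain, chosen likewise, was highest in treated Tespa1-/- at 39.1 ± 1.75 CPM (interaction 2.45 ± 0.26). With at least 10 counts required in every library 2 were called positive. Of the 70, 51 were at or under 3 counts throughout at least 1 group. Ighv1-81 had 32, 12 and 31 counts in untreated WT, 0, 1 and 0 in untreated Tespa1-/-, 0, 0 and 0 in treated WT and 169, 77 and 56 in treated Tespa1-/- libraries, and Igkv6-32 and Igkv4-53 were likewise found in untreated WT and treated Tespa1-/- only, beyond 3 counts. V genes of a family share sequence, so reads may be split among them. Ighm, the IgM heavy chain and the most abundant, had an interaction of 0.38 ± 0.07 (adjusted p = 0.00891, edgeR), below the fold threshold. Gzma, granzyme A of cytotoxic lymphocytes, was at least 87.03-fold higher in treated Tespa1-/- than in treated WT by the 3-count limit, with no count in any treated WT library. It belongs to the T and NK cell genes, which gave 1 positive and 1 negative call among 17 tested. Their fitted interactions were above 0 for 8 and below 0 for 9, with a median of -0.12. The negative count stayed at 1 in every fit that left out 1 library. The edgeR call did not hold for Gzma without untreated WT replicate 1 (8.29, adjusted p = 1).

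Regulators of stem cell self-renewal leaned the other way. Of 42 tested, 5 had a negative interaction and 1, Foxo1 (0.74), a positive one, and 32 of the 42 fitted values were below 0. After 5-FU 9 were lower in Tespa1-/-, against 3.49% of all genes, and without treatment 4 were, against 1.31%. The median was -0.28, and -0.29 with 1 negative call without the 4 libraries with kidney RNA. Fgd5, an exchange factor for CDC42 that marks long-term stem cells, was at 13.9, 10.01 and 10.1 CPM in untreated WT, 13.1, 11.7 and 10.8 in untreated Tespa1-/-, 14.6, 18.1 and 18.7 in 5-FU-treated WT and 7.46, 6.55 and 7.46 in 5-FU-treated Tespa1-/- libraries. The untreated groups overlapped, treated WT lay above them and treated Tespa1-/- below, for an interaction of -1.32 ± 0.25 (adjusted p = 0.00803, edgeR). Prdm16, a chromatin factor that maintains stem cells, and Robo4, a receptor that anchors them in the niche, had interactions of -0.997 ± 0.26 and -0.99 ± 0.25. Leaving out 1 library gave 3 to 5 (a shift of over 1.5 times without any 1 library other than untreated WT replicate 1, 5-FU-treated WT replicate 1 and 5-FU-treated Tespa1-/- replicates 1, 2 and 3) negative calls, and the positive call of Foxo1 was lost without any 1 library other than untreated WT replicate 2 or 5-FU-treated Tespa1-/- replicate 3, without the 4 libraries with kidney RNA, with limma-voom, with library totals and with the replicate as a block. Negative calls numbered 3 with a replicate block and 3 with no filter on low counts. The threshold was missed in 10 of the 12 edgeR fits that each left out 1 library for Prdm16 (interaction -1.09 to -0.85 in those fits) and Robo4 (interaction -1.07 to -0.84 in those fits).

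Flt3, the receptor of lymphoid-primed multipotent progenitors, was lower in each group than in the one before, at 600.4, 619 and 612 CPM in untreated WT, 497, 493 and 492 in untreated Tespa1-/-, 314, 324 and 306 in 5-FU-treated WT and 172, 162 and 175 in 5-FU-treated Tespa1-/- libraries. No groups overlapped, and the drop with 5-FU was larger in Tespa1-/-, for an interaction of -0.59 ± 0.06 (adjusted p = 7.29e-05, edgeR). Wfdc17, a small secreted inhibitor, and Ets1, a lymphoid transcription factor, were also called, at -1.69 ± 0.43 and 0.81 ± 0.21. Of 19 homing and niche adhesion genes tested, 2 had a positive interaction and 1, Robo4, a negative one. The integrin chains Itgb2 (1.57 ± 0.24) and Itgb7 (0.59 ± 0.15) were called positive, while Itga4, the most abundant, was not called (-0.16 ± 0.07). Itgb2, the chain shared by the leukocyte integrins, averaged 95.1 CPM in treated Tespa1-/- and 25.1, 25.7 and 31.3 in untreated WT, untreated Tespa1-/- and treated WT. The call was lost in 4 of the 12 edgeR fits that each left out 1 library for Flt3 (interaction -0.58 to -0.57 in those fits, where only the fold threshold was missed). The call failed in 9 to 10 of the 12 edgeR fits that each left out 1 library for Wfdc17 (interaction -1.86 to -1.49 in those fits) and Ets1 (interaction 0.70 to 0.86 in those fits). That of Itgb7 was lost in all 12, and without the 4 libraries with kidney RNA Itgb2 alone of the list was called. It was also the 1 positive member called with DESeq2, with the replicate block and with each other scaling or filter.

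A few genes of the cell's scaffold and of the matrix changed order between genotypes. Lmna, lamin A of the nuclear envelope, stood at 51.6, 61.4 and 53.2 CPM in untreated WT, 20.4, 21.2 and 19.2 in untreated Tespa1-/-, 38.4, 35.8 and 33.7 in 5-FU-treated WT and 64.9, 63.6 and 60.3 in 5-FU-treated Tespa1-/- libraries. It was lower in Tespa1-/- without treatment (-1.45) and higher after 5-FU (0.81), both called and with no overlap of the genotypes in either condition, for an interaction of 2.26 ± 0.13 (adjusted p = 6.37e-07, edgeR). Ahnak, a giant protein under the plasma membrane, turned likewise, from -0.61 to 0.68, with an interaction of 1.29 ± 0.07 (adjusted p = 2.75e-07, edgeR). Thbs1, the matrix protein thrombospondin 1, chosen after its values were seen, was at 18.6, 17.3 and 23.3 CPM in untreated WT, 4.57, 4.40 and 2.01 in untreated Tespa1-/-, 15.9, 12.9 and 12.9 in 5-FU-treated WT and 25.2, 33.2 and 34.1 in 5-FU-treated Tespa1-/- libraries, with an interaction of 3.57 ± 0.36 (adjusted p = 8.48e-05, edgeR). Anxa1, annexin A1, and Syne1, a nuclear envelope protein chosen after its values were seen, had a genotype difference that was called after 5-FU and not without it, with interactions of 1.48 ± 0.11 and 1.68 ± 0.12. Tln1, talin, was the most abundant of the 18 Ahnak, lamin, annexin and S100 genes and had an interaction of 0.19 ± 0.05 (adjusted p = 0.0411, edgeR), below the fold threshold. All 3 members called (Ahnak, Lmna and Anxa1) were called as well in each fit that left out 1 library and without the 4 libraries with kidney RNA, and DESeq2 called 5. Anxa1 is also counted among the secondary granule genes.

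Smaller sets of metabolic and stress genes were called on the positive side. Of 20 antioxidant and metallothionein genes, 5 were, with treated Tespa1-/- apart for all 5. Gstm1, a glutathione transferase, was at 30.4, 32.2 and 35.8 CPM in untreated WT, 29.5, 30.97 and 32.8 in untreated Tespa1-/-, 38.2, 41.1 and 34.8 in 5-FU-treated WT and 74.1, 82.9 and 87.3 in 5-FU-treated Tespa1-/- libraries (interaction 1.17 ± 0.14, adjusted p = 0.000293, edgeR). The metallothioneins Mt1 and Mt2 had interactions of 1.15 ± 0.22 and 3.39 ± 0.87, while Txnrd1, thioredoxin reductase and the most abundant, was not called (0.04 ± 0.09, adjusted p = 0.876, edgeR). Of 25 genes of the integrated stress and unfolded protein responses 3 were called: Asns, asparagine synthetase (1.41 ± 0.37), Ddit3, the factor CHOP (0.80 ± 0.17), which overlaps Mars on the other strand, and Sdf2l1, an endoplasmic reticulum cochaperone (0.64 ± 0.13). Calr, calreticulin, was not called (0.10 ± 0.05). Of 23 glycolysis genes the hexokinases Hk1 (0.59 ± 0.10) and Hk2 (0.63 ± 0.10) and Gpi1 (0.66 ± 0.14) were called, with untreated Tespa1-/- apart for Hk2 at 98.4 CPM against 174 in untreated WT, and Pkm, pyruvate kinase, was not (0.18 ± 0.11). Without the 4 libraries with kidney RNA 2 antioxidant, 0 stress and 0 glycolysis genes were called. Leaving out 1 library gave counts of 3 to 5 (a shift of over 1.5 times without untreated Tespa1-/- replicate 1 or 2, 5-FU-treated WT replicate 1 or 5-FU-treated Tespa1-/- replicate 2) for antioxidant genes, 1 to 2 (a shift of over 1.5 times without untreated Tespa1-/- replicate 1 or 2) for stress genes and 1 to 4 (a shift of over 1.5 times without untreated WT replicate 3 or 5-FU-treated Tespa1-/- replicate 2) for glycolysis genes, and the last count was 1 with library totals in place of TMM factors. Leaving out a single library ended the edgeR call for Ddit3 without untreated Tespa1-/- replicate 1 (0.78, adjusted p = 0.0513) and untreated Tespa1-/- replicate 2 (0.76, adjusted p = 0.0569), for Sdf2l1 without untreated WT replicate 3 (0.58, adjusted p = 0.0302), 5-FU-treated WT replicate 1 (0.58, adjusted p = 0.0387) and 5-FU-treated Tespa1-/- replicate 1 (0.58, adjusted p = 0.0434), for Hk2 without untreated WT replicate 3 (0.58, adjusted p = 0.00844) and 5-FU-treated WT replicate 2 (0.54, adjusted p = 0.00755) and for Gpi1 without untreated Tespa1-/- replicate 1 (0.63, adjusted p = 0.05) and 5-FU-treated Tespa1-/- replicate 2 (0.53, adjusted p = 0.0407). The call ended in 6 to 10 of the 12 edgeR fits that each left out 1 library for Mt2 (interaction 2.26 to 3.56 in those fits), Asns (interaction 1.06 to 1.49 in those fits) and Hk1 (interaction 0.51 to 0.58 in those fits, where only the fold threshold was missed).

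Small structural RNAs were mostly on the negative side. These are the RNA cores of particles that process or target other RNAs, transcribed mostly by RNA polymerase III without a poly(A) tail, so a library made from poly(A) RNA holds only what was carried along. Of 12 tested, 7 had a negative interaction, and 5 were higher in untreated Tespa1-/-, against 1.55% and 1.02% of all genes. The 5 became 1 to 5 with 1 library left out, a shift of over 1.5 times without untreated WT replicate 2 or untreated Tespa1-/- replicate 3. Rpph1, the RNA of RNase P, whose gene overlaps Ccnb1ip1, stood at 4418, 3769 and 4715 CPM in untreated WT, 8947, 7849 and 7541 in untreated Tespa1-/-, 11785, 11004 and 13243 in 5-FU-treated WT and 11999, 11829 and 9652 in 5-FU-treated Tespa1-/- libraries. Untreated WT lay below all other groups, and the interaction was -1.02 ± 0.14 (adjusted p = 0.000796, edgeR). Rn7s1, of the signal recognition particle, and Rn7sk, which holds back transcription elongation, had interactions of -0.68 ± 0.05 and -0.77 ± 0.06. Small nuclear RNA genes, the cores of the spliceosome, were similar, with 17 of 72 called negative and 0 positive, against 1.55% and 1.66% of all genes. Their copies are near-identical, and reads cannot be assigned to one with certainty. The share of all counts in snRNA, snoRNA, scaRNA, miscellaneous RNA, ribozyme and rRNA genes was 3.07 to 3.38% in untreated WT, 4.83 to 5.04% in untreated Tespa1-/-, 4.85 to 4.97% in 5-FU-treated WT and 4.20 to 4.38% in 5-FU-treated Tespa1-/- libraries, and its part in these calls was not tested. Leaving out the 4 kidney-RNA libraries, 4 of the 12 were called.

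Rprl3, a copy of the RNase P RNA gene at chr8:3803069-3803358, had 20082, 13360 and 14668 counts in untreated WT, 14275, 14216 and 13469 in untreated Tespa1-/-, 8723, 7871 and 7551 in 5-FU-treated WT and 1, 2 and 0 in 5-FU-treated Tespa1-/- libraries. The gene was thus undetected in all 3 treated Tespa1-/- libraries and abundant in the other 9. After 5-FU it was at least 2352-fold lower in Tespa1-/- by the 3-count limit, and the interaction was called in every fit that left out 1 library and without the 4 libraries with kidney RNA (adjusted p = 4.02e-13 with all libraries, edgeR). For Rpph1, with which it shares sequence, the genotype difference after 5-FU was -0.11 (adjusted p = 0.542, edgeR).

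KRAB zinc finger genes, many of which silence retroelements, held genes that were nearly absent from 1 or more groups. Zfp990, at chr4:145510759-145539188, had 5, 10 and 0 counts in untreated WT, 1259, 1270 and 1230 in untreated Tespa1-/-, 350, 622 and 345 in 5-FU-treated WT and 366, 502 and 209 in 5-FU-treated Tespa1-/- libraries. Untreated WT stood below all others, and the interaction was -8.32 ± 0.60 (adjusted p = 4.25e-06, edgeR). Zfp708 had counts of 84, 35 and 58 in untreated Tespa1-/- and at most 7 in any library of the other groups. It overlaps 4 other counted genes in the annotation, and both belong to clusters of near-identical copies, so reads may be split. Zfp992 was called too (-0.76 ± 0.18), making 3 of 11 tested, or 1 to 3 (a shift of over 1.5 times without untreated Tespa1-/- replicate 1 or 3 or 5-FU-treated WT replicate 1) with 1 library left out. Without the 4 libraries with kidney RNA Zfp990 alone was called, and the count was 5 with DESeq2 and 1 with at least 10 counts required in every library. A single library decided the edgeR call for Zfp708 without untreated Tespa1-/- replicate 1 (-11.05, adjusted p = 0.0715), untreated Tespa1-/- replicate 3 (-11.40, adjusted p = 0.0536) and 5-FU-treated WT replicate 1 (-7.16, adjusted p = 1). The threshold was missed in 9 of the 12 edgeR fits that each left out 1 library for Zfp992 (interaction -0.79 to -0.67 in those fits).

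Several of the largest negative values followed the libraries with kidney RNA. Gpx3, a plasma glutathione peroxidase made in the kidney tubule, was at 1.07, 0.311 and 0.181 CPM in untreated WT, 1.19, 46.4 and 14.2 in untreated Tespa1-/-, 14.4, 24.5 and 0.414 in 5-FU-treated WT and 4.79, 5.66 and 6.78 in 5-FU-treated Tespa1-/- libraries. Untreated Tespa1-/- replicates 2 and 3 and treated WT replicates 1 and 2 held the highest values, and the fitted interaction went from -6.42 to 2.64 without them, which was not called. Acsm2, a tubule acyl-CoA synthetase, had 0, 162 and 25 counts in untreated Tespa1-/-, 22, 27 and 0 in treated WT and 0 in every other library. Fxyd2, a regulator of the sodium pump, had 21, 10 and 11 counts in untreated WT, 25, 144 and 48 in untreated Tespa1-/-, 55, 48 and 22 in treated WT and 0, 0 and 0 in treated Tespa1-/- libraries, and so was undetected in treated Tespa1-/- alone. Gm27517, a short noncoding gene inside Tug1, had 1, 1 and 1 counts in untreated WT, 1, 152 and 183 in untreated Tespa1-/-, 214, 199 and 1 in treated WT and 18, 5 and 15 in treated Tespa1-/- libraries, again high in those 4 libraries. Of 15 kidney tubule genes tested 6 were called negative, 2 to 6 (a shift of over 1.5 times without any 1 library other than untreated Tespa1-/- replicate 1 and 5-FU-treated WT replicate 3) with 1 library left out, and 0 without the 4 libraries. The count was 2 with limma-voom, 3 with a replicate block and 0 with at least 10 counts required in every library. With 1 library left out, the call of the edgeR quasi-likelihood test was lost for Gm27517 without untreated WT replicate 2 (-10.16, adjusted p = 0.0521) and 5-FU-treated Tespa1-/- replicate 2 (-9.74, adjusted p = 0.0526). The call was lost in 10 of the 12 edgeR fits that each left out 1 library for Gpx3 (interaction -7.55 to -5.01 in those fits) and Acsm2 (interaction -16.43 to -13.72 in those fits).

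The remaining genes with the largest fitted values were expressed at low levels. Prom1, the surface protein prominin-1, was at 0.0357, 1.25 and 0.181 CPM in untreated WT, 0.308, 0.311 and 0.262 in untreated Tespa1-/-, 0.937, 0.154 and 0.289 in 5-FU-treated WT and 14.9, 13.3 and 12.3 in 5-FU-treated Tespa1-/- libraries (interaction 5.54 ± 1.15, adjusted p = 0.0136, edgeR), and it overlaps Gm42716. Neo1, a receptor for netrins, was at 0.321, 0.400 and 0 CPM in untreated WT, 0.703, 2.27 and 1.49 in untreated Tespa1-/-, 4.29, 6.60 and 5.87 in 5-FU-treated WT and 3.48, 2.68 and 1.40 in 5-FU-treated Tespa1-/- libraries (interaction -3.72 ± 0.91), with untreated WT below every library of the other groups. Slc27a2, a fatty acid transporter of kidney and liver, Zfr2, an RNA-binding protein, and Pclo, a scaffold of the synapse, had interactions of -4.19 ± 0.90, -4.85 ± 1.05 and -3.63 ± 0.95, all with treated Tespa1-/- lowest by its mean. Pclo averaged 0.548 CPM there and 2.55 in treated WT, and it overlaps Gm43663. The edgeR call did not hold for Prom1 without untreated WT replicate 2 (3.37, adjusted p = 0.137), for Slc27a2 without untreated Tespa1-/- replicate 2 (-3.65, adjusted p = 0.0569) and for Zfr2 without untreated Tespa1-/- replicate 3 (-4.34, adjusted p = 0.058) and 5-FU-treated WT replicate 2 (-4.47, adjusted p = 0.0546). The call failed in 7 to 10 of the 12 edgeR fits that each left out 1 library for Neo1 (interaction -3.998 to -3.29 in those fits) and Pclo (interaction -3.84 to -3.20 in those fits).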

How the data were processed

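The 12 libraries were poly(A)-selected, made with a stranded kit and sequenced in pairs. The deposited table gives gene counts and FPKM per library; the submitters' processing notes name CASAVA 1.8, HISAT2, StringTie, edgeR and GRCm38, without saying which made which values, and whether counting used strand is not given in the sources used here. The FPKM values deposited by the authors follow from the counts and 1 length per gene (largest relative spread 4.34e-06 over 8529 genes with at least 200 counts) and were not used. No other per-sample columns (0) were present.

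Counts were used as deposited. Genes passing filterByExpr (minimum count 10) were fitted with edgeR 4.0.16 (R 4.3.3; TMM, quasi-likelihood F-test, no replicate block) in a 4-group model, with a common biological coefficient of variation of 0.272. Calls needed a fold above 1.5 and a p, adjusted by Benjamini-Hochberg over all genes tested, below 0.05. The 5-FU response within a genotype and the genotype effect within a condition were contrasts of the same fit. Replicates of a group differed by more than sampling noise (median chi-square per gene 2.08 to 5.87). A count of 3 or fewer in every library of a group was taken as not detected.

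The gene lists and members were chosen with earlier results of these data known. Named genes were Tespa1, the 6 largest called interactions in each direction among genes that averaged at least 1 CPM and were detected in every group, the 4 most abundant called genes in each direction that were not detected in a group, the 3 largest called interactions and the most abundant member of each list with 3 or more calls, and 6 genes named by the study. Chosen after their values were seen were S100a9, Igkc, Igha, Thbs1, Vegfa, Lif, Tlr7, Gbp6, Gvin1, Irf7, Ifit1, C3 and Syne1, and, as the members behind small counts, Atf3, Junb, Foxo1 and Rrm2. Alternatives were DESeq2 1.42.0, limma-voom (limma 3.58.1), other scalings and filters, other thresholds, a replicate block and leaving out each library. Leaving out the 4 libraries with kidney RNA was chosen after seeing the data. Promoters came from RefSeq (GRCm38.p6) and overlaps from GENCODE M21. The fit was tested on simulated data. A few genes that the rule named are not reported here.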

Additional observations from a re-analysis of the deposited data

Results flagged for a closer look

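The genotype effect differed between untreated and 5-FU-treated LSKs, by the interaction term of the edgeR fit, for 311 genes in the positive and 290 in the negative direction. Groups of 3 libraries were not tested for outlying samples. The interactions of the named genes that passed were as follows, on the log2 scale, and values of genes not detected in a group depend on the prior count and are no bounds.

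Among Ahnak, lamin A, annexin and S100 genes the values were Ahnak (1.29) and Lmna (2.26). For antioxidant and metallothionein genes they were Gstm1 (1.17), Mt1 (1.15) and Mt2 (3.39). B-lymphoid programme genes gave Cd79a (1.46), Jchain (2.86) and Pax5 (1.39). Of basophil and mast cell genes, the term passed for Mcpt8 (2.64) and Prss34 (4.73). Among eosinophil granule genes the values were Ear2 (14.27), Prg2 (9.80) and Prg3 (11.69). For erythroid regulators and membrane genes they were Cd24a (0.75), Slc4a1 (7.10) and Sptb (2.08). GVIN and IFI200 genes gave Gvin1 (-1.36). Of globin and heme synthesis genes, the term passed for Alas2 (8.89), Cpox (1.68), Hba-a1 (4.66) and Hba-a2 (5.56). Among glycolysis genes the values were Gpi1 (0.66), Hk1 (0.59) and Hk2 (0.63). For HSC self-renewal regulators they were Fgd5 (-1.32), Prdm16 (-0.997) and Robo4 (-0.99). Homing and niche adhesion genes gave Itgb2 (1.57) and Itgb7 (0.59). Of IP3 and calcium signalling partners, the term passed for Tespa1 (-1.05). Among immunoglobulin V, J and C genes the values were Igha (2.45), Ighv1-81 (15.27), Igkc (2.83), Igkv4-53 (14.03) and Igkv6-32 (14.60). For integrated stress and unfolded protein response they were Asns (1.41), Ddit3 (0.80) and Sdf2l1 (0.64). Interferon-stimulated genes gave Ifit1 (-1.70), Ifit3 (-2.23), Ifit3b (-2.17), Irf7 (-0.81), Mx1 (-2.25) and Rnf213 (-0.68). Of KRAB zinc finger genes near Zfp986 and Zfp708, the term passed for Zfp708 (-11.38), Zfp990 (-8.32) and Zfp992 (-0.76). Among kidney tubule genes the values were Acsm2 (-16.03), Fxyd2 (-10.80) and Gpx3 (-6.42). For late neutrophil receptors and effectors they were G0s2 (3.89), Hdc (1.16), Il1b (7.82) and Retnlg (15.44). Lymphoid-primed progenitor genes gave Ets1 (0.81), Flt3 (-0.59) and Wfdc17 (-1.69). Of mitotic spindle and kinetochore genes, the term passed for Ccna2 (0.88), Ccnb2 (0.9997) and Ube2c (0.94). Among monocyte and macrophage genes the values were Fn1 (3.07), Lgals3 (3.22) and Vcam1 (2.43). For NF-kB subunits and feedback genes they were Cxcl2 (1.20), Tnf (1.15) and Tnfaip3 (1.42). NR4A and EGR factors gave Nr4a1 (0.62) and Nr4a3 (1.08). Of other early-response genes, the term passed for Csrnp1 (0.94), Gadd45b (1.09) and Klf2 (0.99). Among primary granule genes the values were Elane (0.96), Igsf6 (0.79) and Prss57 (1.37). For Schlafen family genes they were Slfn4 (5.31), Slfn5 (-1.28), Slfn8 (-0.75) and Slfn9 (-0.65). Secondary granule and calprotectin genes gave Anxa1 (1.48), Fcnb (12.69), S100a8 (7.28), S100a9 (5.20) and Wfdc21 (17.0003). Of small structural RNAs, the term passed for Rn7s1 (-0.68), Rn7sk (-0.77), Rpph1 (-1.02) and Rprl3 (-12.69). Among T and NK cell genes the values were Gzma (12.10). For Tgtp, GBP and TRIM30 genes they were Gbp6 (-1.77). Genes in none of the lists gave C3 (2.34), Gm27517 (-10.12), Lif (2.41), Neo1 (-3.72), Pclo (-3.63), Prom1 (5.54), Slc27a2 (-4.19), Syne1 (1.68), Thbs1 (3.57), Tlr7 (-2.76), Vegfa (1.17) and Zfr2 (-4.85). A gene in more than 1 list is given once above, and Anxa1 also belongs to the Ahnak, lamin A, annexin and S100 genes, Flt3 also belongs to the surface markers of stem and multipotent cells, Hdc also belongs to the basophil and mast cell genes and Robo4 also belongs to the homing and niche adhesion genes.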

How the results depend on the processing

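With 1 library left out, 206 to 280 positive and 181 to 306 negative interactions were called, and the counts moved by over 1.5 times without 5-FU-treated Tespa1-/- replicate 2 (positive) and without untreated Tespa1-/- replicate 1, 2 or 3 (negative, 192, 181 and 190). Of the 101 named genes called, 59 were called in each of these 12 fits and 42 were lost in at least 1. Positive counts were 564 with no fold threshold, 166 at a fold above 2 and 778 at an unadjusted p below 0.05, and negative counts 183 at a fold above 2, 1163 at an unadjusted p and 505 with DESeq2, the cause of which was not tested. DESeq2 shared 593 calls of the same sign and limma-voom 513. Without the 4 libraries with kidney RNA, which leaves fewer samples, 74 positive and 44 negative genes were called and 59 named calls were lost, while the fitted values of Gpx3 and Gm27517 turned to 2.64 and 3.40, neither called. The interaction of Prss34 turned to -1.61 without untreated WT replicate 1, and over the 12 fits it ran from -1.61 to 5.27, where the cause was not tested.

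The labels give the groups the same replicate numbers. Same-numbered samples did not visibly deviate together (18 pairs, correlations -0.0758 to 0.0413, against -0.0378 to 0.0578 for other pairs). Correlations over all genes tested cannot show whether same-numbered samples were handled together. With the replicate as a block, 265 positive and 226 negative interactions were called, and 11 named calls were lost. For some genes not detected in a group, such as Fcnb and Retnlg, 1 library decided the call. Others, such as Ighv1-81 and Igkv6-32, were called in every fit that left out 1 library. The part of depth in this was not tested.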
